A study of Mus musculus with 16 samples.

Results

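The genes that drive a cell into and out of mitosis were followed here through newborn mouse lungs after ozone. The set holds 10 genes, namely the kinase Cdk1, the cyclins Ccna2, Ccnb1, Ccnb2 and Ccnf, the Cdk-binding subunit Cks2, the phosphatase Cdc25c, the transcription factor Foxm1, and the destruction factors Cdc20 and Ube2c. They were found by name or older synonym (Cdc2a for Cdk1) among the array's probes that are not controls. All 10 genes, through 15 probes, passed the filter on dim probes and were among the 21638 genes tested.

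The 4 groups hold 4 whole lungs each, from pups of BALB/c, an inbred mouse strain, that were 3 days old. One pair of groups was taken 6 h after the exposure ended, with ozone at 1000 ppb for 3 h in the exposed group and filtered air for 3 h in its littermate controls. The other pair, taken at 24 h, received the same exposures. All groups share the strain, the labelled age of 3 days and the cross-fostering that kept every pup with a dam during exposure. They also share the random choice of 4 lungs from the larger number of mice started per group. Air littermates were exposed anew for each time point, which was a separate run. Ozone is an oxidant gas, and the study asked how the newborn lung responds to a single exposure. All 8 marker genes of lung tissue, such as the surfactant genes Sftpc and Sftpb, were well above background on all 16 arrays. A whole lung mixes many cell types, so fewer dividing cells and less RNA per dividing cell cannot be told apart. In a lung of this age many cells still divide.

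As background, Cdk1 is the kinase that starts mitosis. It is active when bound to an A- or B-type cyclin, once Cdc25 phosphatases remove the inhibitory phosphates that Wee1 and Pkmyt1 add, and Cks proteins help the complex to reach its substrates. Foxm1, with the MuvB complex and B-Myb (Mybl2), switches on the late cell cycle genes, and the anaphase-promoting complex (APC/C), activated by Cdc20 and served by the ubiquitin-conjugating enzyme Ube2c, ends mitosis by marking the cyclins for destruction. Promoters of such genes often combine CCAAT boxes, bound by NF-Y, with a cell cycle homology region (CHR), bound by MuvB.

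The promoters are shown because these genes fell together at 24 h. The RefSeq promoter table (GRCm38.p6) held 7 of the 10 genes and had no entry for Ccna2, Foxm1 and Cdc25c. Its windows run from 250 bases before to 50 bases after the annotated start. Each window was searched on both strands for CCAAT, for the CHR forms TTTGAA and TTTAAA, and for the E2F-like TTTNNCGC, with overlapping matches counted. The 200 bases before the start follow for 5 of them, 5′ to 3′ on the gene's strand, with CCAAT and CHR letters (or their reverse complement) in capitals. Matches outside these 200 bases are counted but not shown. They are a CCAAT at -208 in Cdk1 and at -228 in Ube2c, and a TTTGAA in Ccnb2 that begins 5 bases after the start. Cdk1 lies at chr10:69352913-69353112, Ccnb1 at chr13:100786487-100786686, Ccnb2 at chr9:70421555-70421754 and Cdc20 at chr4:118437344-118437543, all on the minus strand, and Ube2c lies at chr2:164769729-164769928 on the plus strand.
Cdk1: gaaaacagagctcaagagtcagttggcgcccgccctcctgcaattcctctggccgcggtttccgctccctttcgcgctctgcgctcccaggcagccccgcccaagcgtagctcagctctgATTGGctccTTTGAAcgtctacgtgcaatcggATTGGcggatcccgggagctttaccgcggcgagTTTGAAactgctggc
Ccnb1: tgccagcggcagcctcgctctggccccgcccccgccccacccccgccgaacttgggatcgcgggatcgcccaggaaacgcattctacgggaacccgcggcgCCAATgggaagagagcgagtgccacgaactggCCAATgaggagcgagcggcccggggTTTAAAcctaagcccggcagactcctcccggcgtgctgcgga
Ccnb2: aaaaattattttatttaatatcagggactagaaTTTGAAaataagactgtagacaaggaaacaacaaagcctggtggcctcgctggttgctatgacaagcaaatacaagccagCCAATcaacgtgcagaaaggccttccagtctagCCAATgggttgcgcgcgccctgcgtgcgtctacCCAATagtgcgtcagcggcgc
Cdc20: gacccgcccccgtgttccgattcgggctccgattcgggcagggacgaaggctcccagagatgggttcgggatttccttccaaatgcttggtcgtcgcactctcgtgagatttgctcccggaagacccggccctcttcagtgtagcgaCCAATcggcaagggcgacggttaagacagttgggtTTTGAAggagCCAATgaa
Ube2c: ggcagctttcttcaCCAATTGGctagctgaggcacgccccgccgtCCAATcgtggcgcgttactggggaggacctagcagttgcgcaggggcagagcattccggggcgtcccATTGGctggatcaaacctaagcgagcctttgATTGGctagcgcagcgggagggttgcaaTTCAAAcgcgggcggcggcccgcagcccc

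All 7 promoters held at least 2 CCAAT matches, which 11.7% of all 32851 promoters in the table did. A TTTGAA was present in 5 of the 7, against 17.9% of all promoters, and Ccnb1 had the TTTAAA form, found in 13.2% of all. Both features together occurred in 6 of 7 and in 3.13% of all promoters, and Cks2 lacked the CHR letters. In Ccnb1 the first bases of the CCAAT matches were 32 bases apart, and in Ccnb2 the 3 matches were spaced 33 and 33 bases. In Cdk1 the spacings were 128 and 32. The other promoters had other spacings, namely 40 in Ccnf, 45 in Cdc20, 43, 36 and 18 in Cks2, and 42, 3, 28, 67 and 31 in Ube2c. TTTNNCGC occurred in the Cdk1 promoter alone of the 7, against 5.17% of all promoters. These are matches of letters in a fixed window and no measurement of binding.

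**Figure D1:**
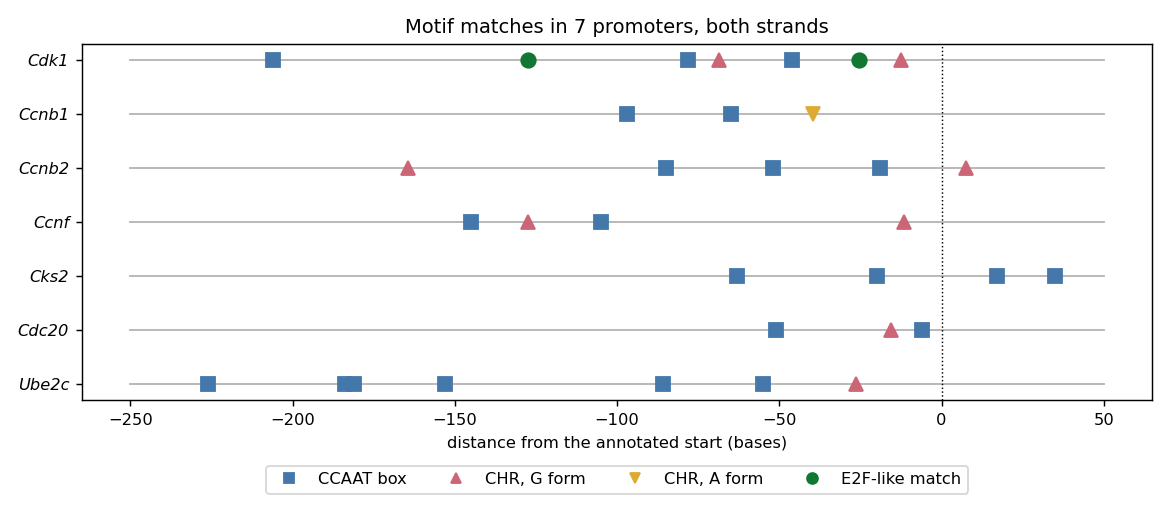
Positions of motif matches in the 7 promoters, on a horizontal axis of distance from the annotated start in bases. Squares mark CCAAT, triangles the CHR forms and circles the E2F-like match, which occurs only in the Cdk1 line. Every line has at least 2 squares, and the Cks2 line has no triangle.

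On the arrays, a level is the processed signal divided by the array's 75th percentile, taken as log2, so 0 is that percentile and a step of 1 is a doubling. Levels of different probes cannot be compared, since each probe binds with its own strength. That percentile lay between 574 and 946 signal units, and the share of probes well above background between 64.5% and 83.6%. Ozone replicate 3 of 6 h had the top share, where the other 6 h arrays reached at most 72.0%. It also read highest of its group for 9 of the 10 genes, which share arrays and scaling. The share of all genes for which this array read highest was not counted. Nothing in the labels says that same-numbered lungs belong together. Differences are ozone minus air with the standard error (SE) of the limma fit. A gene is called lower or higher at a Benjamini-Hochberg adjusted p under 0.05 over all genes.

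At 24 h all 10 genes were called lower after ozone. At 6 h 7 of the 10 differences were negative and that of Cdk1 alone was called. At 24 h the differences ran from -0.98 to -0.64 on the log2 scale, with a median of -0.93 against 0.02 over all genes tested. The linear signal fell by 49.4% for Ccna2, at one end, and fell by 35.9% for Cks2, at the other. Of all genes, 1.31% were called lower at 24 h. All 4 ozone values lay below all 4 air values for all 10 genes, a separation that 4.96% of all genes had. At 6 h 1 of the 10 was called lower and 0 higher, where 3.12% and 1.36% of all genes were, and the median was -0.13 against 0.07. Over all genes the split depended on the scaling. At 6 h 675 genes were lower and 295 higher, against 801 and 151 with normexp background correction and 872 and 37 with median scaling, and at 24 h 283 and 146, against 322 and 322 and 210 and 46. All 10 genes were called lower at 24 h under each of these.

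**Figure D2:**
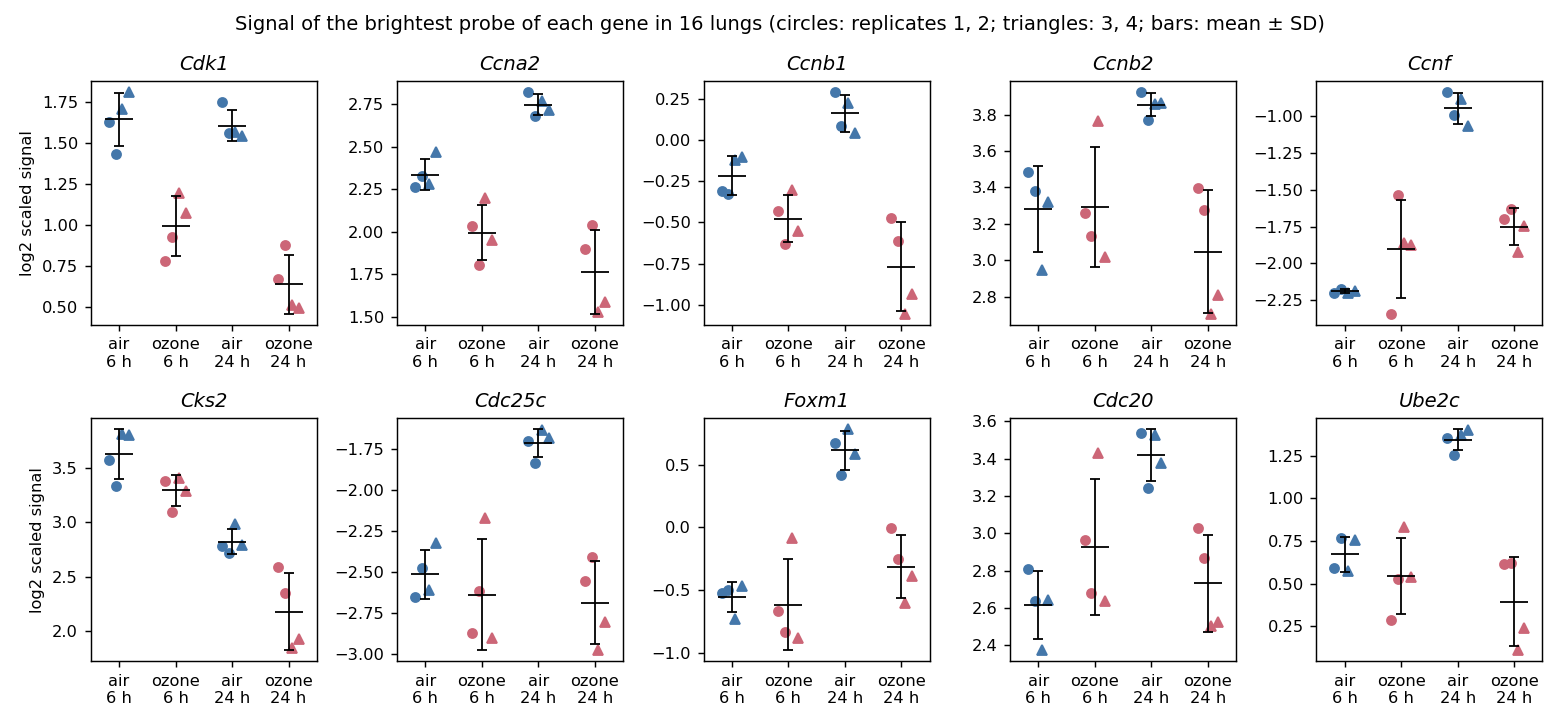
Log2 scaled signal of the brightest probe of each gene (vertical axis, 1 panel per gene with its own scale) in the 16 lungs by group. Circles are replicates 1 and 2, triangles replicates 3 and 4, and bars show the mean ± SD of 4 lungs. At 24 h the ozone points lie below the air points in all 10 panels, and at 6 h they do so in the Cdk1 and Ccna2 panels.

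Cdk1, the catalytic subunit, was lower at both times. At 6 h its levels in replicates 1 to 4 were 1.63, 1.43, 1.71 and 1.81 in air and 0.78, 0.93, 1.20 and 1.07 in ozone. The groups did not overlap, and the lowest air lung stood above the highest ozone lung. The difference was -0.65 ± 0.11 (SE, n = 4 per group, limma adjusted p = 0.00352 and 95% interval -0.87 to -0.43), so that the linear signal fell by 36.3%. At 24 h the levels were 1.75, 1.56, 1.57 and 1.54 in air and 0.67, 0.88, 0.52 and 0.49 in ozone, and the groups again lay apart. The difference was -0.97 ± 0.11 (limma adjusted p = 0.000185). Being lower at both times is shared by 0.421% of all genes. The 24 h effect minus the 6 h effect was -0.32 ± 0.15 (limma adjusted p = 0.394, 95% interval -0.63 to 0), so a difference in size between the times was not called.

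The other probe of Cdk1 gave no usable measure. The lead probe targets chr10:68805423-68807832 (mm9, minus strand), a span of 2410 bases for a probe of 60, and the other targets chr10:68800164-68800223. Both are shown, since they disagree at 6 h; of the second the leading 30 bases are given.
A_51_P450033: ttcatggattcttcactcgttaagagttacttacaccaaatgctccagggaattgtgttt
A_52_P339954: cctgacgctcctgattgtagagactgtcag

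The lead probe was well above background on all 16 arrays and the other on 7 of 16, with 0 of 4 in air and 1 of 4 in ozone at 6 h. At 24 h it was so on 4 of 4 in air and 2 of 4 in ozone. Its differences were 0.58 ± 0.69 at 6 h (adjusted p = 0.653 in the limma fit of all 32351 probes) and -1.18 ± 0.69 at 24 h (adjusted p = 0.565). In the 24 h ozone group it read -4.72 and -5.59 in replicates 1 and 2 and -8.16 and -7.61, not well above background, in replicates 3 and 4. When the probes of each gene were averaged, Cdk1 stood at -0.03 at 6 h and -1.07 at 24 h and was called at neither time.

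**Figure D3:**
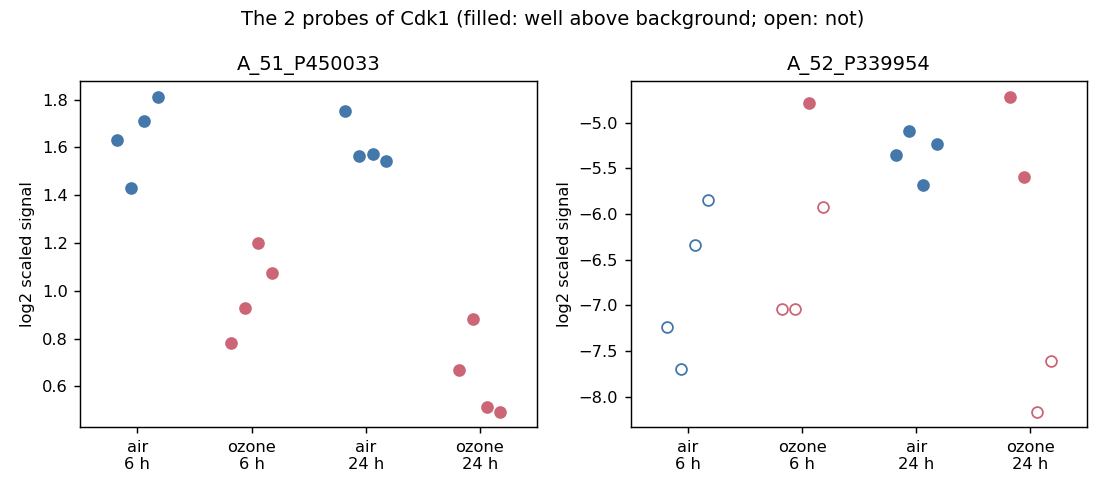
Log2 scaled signal of the Cdk1 probes in each lung (vertical axes of different scale), by group on the horizontal axis. Filled points are well above background and open points are not. The lead probe on the left is filled on all 16 arrays, and the other probe on 7 of 16.

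Ccna2 (probe at chr3:36463978-36464037, mm9) encodes cyclin A2, the partner of Cdk1 and Cdk2 in S phase and early mitosis. At 24 h its levels were 2.82, 2.68, 2.77 and 2.72 in air and 1.90, 2.04, 1.53 and 1.59 in ozone. The air lungs were close together and all stood above the ozone lungs. Its difference of -0.98 ± 0.10 (limma adjusted p = 0.000159, 95% interval -1.20 to -0.76) was the largest of the lead probes over all arrays, by less than the errors. Within the slide of replicates 1 and 2 Cdk1 fell more, and within the other Cdc25c, Ube2c and Foxm1 did. At 6 h the levels were 2.26, 2.33, 2.28 and 2.47 in air and 2.03, 1.80, 2.20 and 1.95 in ozone. These groups did not overlap either, as for 4.87% of all genes, but the difference of -0.34 ± 0.10 missed the threshold (limma adjusted p = 0.0739). It passed with array weights (-0.48) and with each array scaled to its median (-0.51).

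The B-type cyclins, which hold Cdk1 active through mitosis, fell at 24 h and were not called at 6 h. Ccnb1 (lead probe at chr13:101549634-101549693, mm9) read 0.29, 0.09, 0.22 and 0.04 in air at 24 h and -0.47, -0.61, -1.05 and -0.94 in ozone, with no overlap. Its difference was -0.93 ± 0.12 (limma adjusted p = 0.000377). Its other probes gave -0.91 ± 0.12 and -0.93 ± 0.13 at 24 h, so the 3 probes differed by less than their errors. At 6 h the Ccnb1 difference was -0.26 ± 0.12 (limma adjusted p = 0.211), with overlapping groups. Ccnb2 (chr9:70255671-70255730, mm9) read 3.92, 3.77, 3.86 and 3.86 in air at 24 h and 3.40, 3.28, 2.71 and 2.81 in ozone, and replicates 3 and 4 of ozone were the lowest. The fall was 0.81 ± 0.16 (limma adjusted p = 0.0137). At 6 h the Ccnb2 difference was 0.01 ± 0.16 (95% interval -0.33 to 0.36), with ozone replicate 3 the highest at 3.77. Without that lung the 6 h value was -0.15.

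Ccnf (probe at chr17:24360797-24360856, mm9) encodes cyclin F, which does not activate a Cdk but selects targets for an SCF ubiquitin ligase. Its levels at 6 h were -2.20, -2.17, -2.20 and -2.19 in air and -2.34, -1.54, -1.86 and -1.87 in ozone. The air lungs were nearly equal, and 3 of the 4 ozone lungs stood above them with replicate 1 below. At 24 h the levels were -0.83, -0.99, -0.88 and -1.07 in air and -1.70, -1.63, -1.93 and -1.75 in ozone, without overlap. The differences were 0.29 ± 0.13 at 6 h (limma adjusted p = 0.218) and -0.81 ± 0.13 at 24 h (limma adjusted p = 0.00233). Without ozone replicate 1 the 6 h value was 0.43 and was called (limma adjusted p = 0.0456). Ccnf was the single gene of the 10 whose effects at the 2 times differed past the threshold, by -1.09 ± 0.18 (limma adjusted p = 0.038), where 0.0185% of all genes were called in that direction and 0.0462% in the other. That call was lost in 14 of the 16 fits that left out 1 lung, and held without ozone replicate 1 (-1.24) or air replicate 2 (-1.10) of 6 h. Median scaling (-0.93, limma adjusted p = 0.154) and slide as a block (-1.09, limma adjusted p = 0.0627) also ended it. The other 9 differences between times were also negative, with a median of -0.82 over all 10 (-0.04 over all genes) and adjusted p from 0.0735 (Ube2c) to 0.56 (Cks2).

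Cks2 (lead probe at chr13:51745898-51745957, mm9), the small Cdk-binding subunit, read 2.78, 2.72, 2.99 and 2.79 in air at 24 h and 2.59, 2.35, 1.85 and 1.93 in ozone. The highest ozone lung was just under the lowest air lung. The fall was 0.64 ± 0.14 (limma adjusted p = 0.025), and the other Cks2 probe gave -0.69 ± 0.16. Fitting the arrays of 24 h only (limma adjusted p = 0.0526) or adding Xist, as a covariate for sex (-0.61, limma adjusted p = 0.0969), ended the call. At 6 h the difference was -0.33 ± 0.14 (limma adjusted p = 0.191). The annotation of both probes also lists predicted transcripts, so near copies of Cks2 cannot be told apart from it.

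Cdc25c, the phosphatase that removes the inhibitory phosphates from Cdk1, read -1.70, -1.83, -1.63 and -1.68 in air at 24 h and -2.56, -2.41, -2.97 and -2.80 in ozone. The gap between the groups was wide compared with the spread in air. The difference was -0.97 ± 0.16 (limma adjusted p = 0.00235), and a dimmer probe gave -1.12 ± 0.22. At 6 h it was -0.12 ± 0.16 (limma adjusted p = 0.674), and the dimmer probe was well above background on 3 of the 4 ozone arrays.

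Foxm1 (probe at chr6:128324783-128324842, mm9), the transcription factor, read 0.67, 0.42, 0.79 and 0.59 in air at 24 h and -0.01, -0.25, -0.61 and -0.39 in ozone, with no overlap. The difference was -0.93 ± 0.15 (limma adjusted p = 0.00273). At 6 h it was -0.06 ± 0.15 (95% interval -0.39 to 0.26), and the ozone lungs spread from -0.88 to -0.09, on both sides of the air lungs.

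Cdc20 (probe at chr4:118105536-118105595, mm9), which activates the APC/C in mitosis, read 3.54, 3.24, 3.53 and 3.38 in air at 24 h and 3.03, 2.87, 2.50 and 2.53 in ozone. The groups lay apart, with a fall of 0.69 ± 0.16 (limma adjusted p = 0.0275). At 6 h the difference was 0.31 ± 0.16 (limma adjusted p = 0.264), with ozone replicate 3 the highest at 3.43. Ube2c (chr2:164598016-164598075, mm9), the conjugating enzyme of the APC/C, read 1.36, 1.26, 1.37 and 1.40 in air at 24 h and 0.61, 0.62, 0.11 and 0.24 in ozone. Its ozone lungs fell into a higher pair on 1 slide and a lower pair on the other, both below air. The difference was -0.95 ± 0.12 (limma adjusted p = 0.00035), against -0.13 ± 0.12 at 6 h (limma adjusted p = 0.559).

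Counted over probes, 14 of the 15 were called lower at 24 h, where 1.12% of all probes were. At 6 h 1 of the 15 was called lower, where 2.62% of all probes were.

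**Figure D4:**
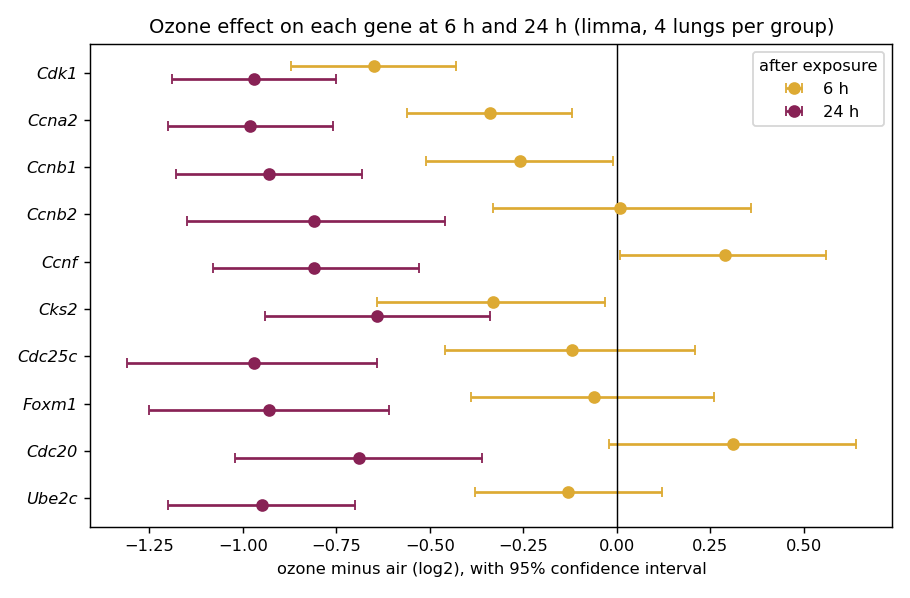
Ozone minus air on the log2 scale (horizontal axis) for each gene, with 95% intervals from limma and 4 lungs per group. All 10 intervals at 24 h lie below 0. At 6 h those of Cdk1, Ccna2, Ccnb1 and Cks2 do so, and that of Ccnf lies above 0, before adjustment over all genes.

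Each time point occupied a pair of slides, and each slide held replicates 1 and 2 or 3 and 4 of both exposures. At 24 h the ozone lungs of replicates 1 and 2 stood above those of replicates 3 and 4 for all 10 genes. The share of all genes so placed was not counted, and the 10 genes share arrays and scaling. Whether this order belongs to these genes or to the slides was not tested. The differences ran from -0.88 to -0.28 within the first slide (median -0.70) and from -1.23 to -0.86 within the other (median -1.11). All were negative in both. Within the first slide 4 genes were called (Ccna2, Ccnb1, Cdk1 and Ube2c) and within the other 9, all but Ccnf. At 6 h Cdk1 was called in each slide, at -0.68 (limma adjusted p = 0.031) and -0.63 (limma adjusted p = 0.0172), where 53 and 761 of all genes were called. Leaving out 1 lung, 7 genes were called at 24 h in all 16 fits. The exceptions were Ccnb2 (14 fits), Cdc20 (11) and Cks2 (11), whose calls ended without ozone replicate 3 (adjusted p of 0.0569, 0.0963 and 0.0906) or ozone replicate 4 (0.056, 0.0889 and 0.0876). Cdc20 and Cks2 also lost theirs without air replicate 1, 3 or 4 of 24 h.

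Levels at 24 h and 6 h were also set side by side, a description chosen after the values were seen. Time, any difference in age that comes with it, slide and run cannot be told apart in it. In air, 8 of the 10 genes had all 24 h lungs above all 6 h lungs, and Cks2 had them all below, by 0.81. Over all genes 22.5% were so placed above and 26.4% below. The air means were higher at 24 h by 1.25 for Ccnf, 1.17 for Foxm1, 0.81 for Cdc20, 0.80 for Cdc25c, 0.67 for Ube2c, 0.57 for Ccnb2, 0.41 for Ccna2 and 0.38 for Ccnb1. Cdk1 differed by -0.04, with overlapping lungs. In ozone 0 of the 10 were so placed above and 1, Cks2, below, where 16.6% and 24.8% of all genes were, and the other 9 differences ran from -0.36 (Cdk1) to 0.30 (Foxm1). For Cdk1 the order of levels was air at 6 h and 24 h, which overlapped, then ozone at 6 h, then ozone at 24 h, which also overlapped.

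**Figure D5:**
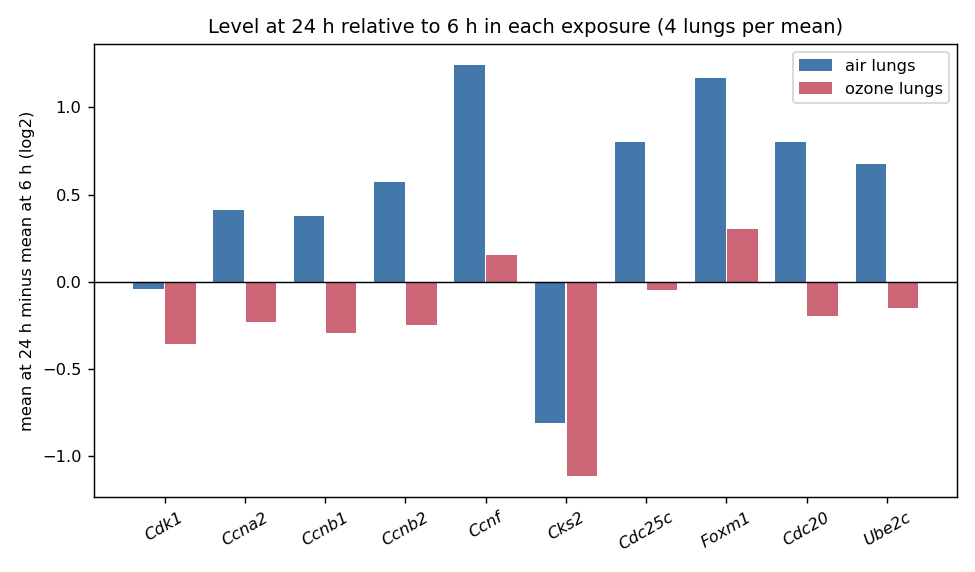
Mean level at 24 h minus mean level at 6 h (vertical axis, log2) in air and in ozone lungs for each gene, with 4 lungs per mean and no error drawn. Air bars reach 1.25 for Ccnf and 1.17 for Foxm1 and lie near 0 for Cdk1, while ozone bars lie between -0.36 and 0.30 except for Cks2.

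The log2 level of Cdk1 minus the mean of the other 9 genes, also taken after the values were seen, was 0.86 ± 0.15 (SD, n = 4) in air and 0.28 ± 0.16 in ozone at 6 h. At 24 h it was 0.24 ± 0.09 and 0.13 ± 0.15. The 6 h groups did not overlap (0.66 to 1.01 in air, 0.16 to 0.49 in ozone). Since Cdk1 was already known to be the gene called at 6 h, this restates that result and is no support for it. The size of this measure carries the brightness of the probes, and only its change between groups can be read. Over the 45 pairs of the 10 genes the median Pearson r was 0.73 across the 16 arrays (range -0.41 to 0.98) and 0.65 for deviations from the group means (0.004 to 0.95). The genes share arrays and scaling, and these values describe them without a test.

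Other genes were ranked by likeness to the mean of the 10, with clone and predicted names passed over. Those most like it across the 16 arrays were Kif4 (r = 0.956), Knstrn (0.955), Kif2c (0.951), H2ax (0.951) and Mki67 (0.949). For deviations from the group means they were Eme1 (0.926), Cenpa (0.921), Kif14 (0.92), Spc24 (0.912) and Ncapg2 (0.91). The points share arrays and scaling here too.

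Of 18 other genes that set Cdk1 activity, 17 were tested (not Ccnb3), and 6 were lower and 0 higher at 24 h, where 1.31% and 0.675% of all genes were, with a median of -0.36. They were the kinases Mastl (-0.93 ± 0.13, limma adjusted p = 0.000775), Plk1 (-0.90 ± 0.15), Aurka (-0.84 ± 0.19) and Pkmyt1 (-0.60 ± 0.12), the Aurora A cofactor Bora (-0.64 ± 0.10), and Cks1b (-0.55 ± 0.10), the paralog of Cks2. At 6 h 0 of the 17 were called, where 3.12% of all genes were lower and 1.36% higher, with a median of -0.17.

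Of 20 genes of the APC/C and of cyclin destruction, 2 were lower and 0 higher at 24 h (1.31% and 0.675% of all genes), with a median of -0.03. These were Fbxo5 (-0.68 ± 0.11, limma adjusted p = 0.00233), an inhibitor of the APC/C, and Pttg1 (-0.75 ± 0.13), the securin it destroys. At 6 h 3 were lower, namely geminin (Gmnn, -0.55 ± 0.11), which blocks re-licensing of replication, the SCF subunit Skp1 (-0.35 ± 0.09) and the APC/C subunit Cdc16 (-0.34 ± 0.09), with a list median of -0.21, where 3.12% of all genes were lower. Of 12 MuvB, B-Myb and DREAM factors, 4 were lower at 24 h, against the same 1.31% of all genes, with a median of -0.05. They were Mybl2 (B-Myb, -0.66 ± 0.12, limma adjusted p = 0.00612), the pocket protein Rbl1 (-0.49 ± 0.09), the E2F partner Tfdp1 (-0.35 ± 0.07) and the MuvB subunit Lin54 (-0.38 ± 0.10). Rbl1 and Tfdp1 were also the 2 called lower at 6 h.

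Of 8 general markers of dividing cells 6 were lower at 6 h (3.12% of all genes), with a median of -0.67, and 8 at 24 h (1.31% of all genes), with a median of -0.71. Pcna, the sliding clamp of DNA replication, was -0.80 ± 0.09 at 6 h (limma adjusted p = 0.00045). Its levels were 4.78, 4.66, 4.81 and 5.02 in air and 4.10, 3.98, 3.93 and 4.05 in ozone, with no overlap. Mki67, the proliferation antigen, was not called at 6 h, and at 24 h it was -0.82 ± 0.12 (limma adjusted p = 0.000775). No gene of these 4 lists, from Cdk1 activity to division markers, was called for the difference between times.

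Markers of other cell types that moved at 24 h are given beside these falls. Of 9 B cell precursor genes 3 were higher after ozone (Vpreb3, Cd79b and Blnk), where 0.675% of all genes were, and the list's summed linear signal, relative to the 75th percentile, was 4.51 to 5.10 in air and 6.45 to 8.54 in ozone. Vpreb3 was also called for the difference between times (0.84 ± 0.13, limma adjusted p = 0.0292), as 0.0462% of all genes were in that direction. Of 8 thymus and T cell precursor genes Cd8b1 and Lck were higher, with sums of 0.871 to 1.03 and 1.12 to 1.90. Csf1r was the gene called higher among 9 macrophage genes. Their sums of 198 to 222 and 216 to 250 overlapped and were carried by Lyz2, by far the brightest probe, which was not called. Lyz2 had a mean of 7.67 in air at 24 h, against 0.53 for Csf1r. Pln was higher among 8 heart muscle genes (0.675% of all genes), whose median was 0.03 and whose sums overlapped. Klf1 (-0.99) was lower among 9 erythroid genes (1.31% of all genes), whose median was -0.24 and whose sums overlapped. Among the uncalled erythroid genes Rhag (-1.12) and Slc4a1 (-0.51) were negative, and Alas2 (0.42), Hba-a1 (0.29) and Epor (0.19) positive. Of 8 fibroblast and smooth muscle genes none was called. Col1a2 (-0.40), Col1a1 (-0.24), Pdgfra (-0.21), Acta2 (-0.17) and Tcf21 (-0.14) were negative, and Dcn (0.24), Pdgfrb (0.13) and Tagln (0.10) positive. Their sums, 319 to 326 in air and 270 to 303 in ozone, weigh most the bright probes such as those of Col1a2 and Acta2. The 9 neutrophil, 8 endothelial and 8 lung tissue genes held no call at 24 h, nor did the 5 liver genes tested. At 6 h Mrc1 was the single gene called in the cell type lists. The part of these shifts in the falls was not tested.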

How the data were processed

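Lung RNA from 16 mice was hybridised in 1 colour (Cy3), 1 array per lung. The deposited scanner files hold spot intensity written by Agilent Feature Extraction 10.7.1.1, per the file headers, with background subtracted. They also carry other values, the flags for spots above background, saturated or uneven. A table of the authors' own log2 values (column medians of 6.41 for the 6 h arrays and 6.73 for those of 24 h), with an unstated treatment of background, served only as an alternative.

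Each processed signal was divided by the 75th percentile of its array over 41174 probes that are not controls, and log2 was taken. Probes well above background on at least 4 arrays were kept (32351, after leaving out 126 with an uneven spot), and the brightest probe stood for each of 21638 genes. No spot was saturated. Probes were named through their accession (25097), symbol (6333) or a synonym (1640), and 8104 kept the file's name. Groups were compared with limma 3.58.1 (lmFit, eBayes with a trend) in R 4.3.3, over all 16 arrays, two-sided, with Benjamini-Hochberg adjustment over all genes, or over all probes where probes are named. Precision is limited by the number of arrays (median SE 0.13). Probe positions come from the array design (mm9) and promoters from RefSeq (GRCm38.p6). The gene part a probe lies in was not analysed here.

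All probes of the 10 genes are reported. In each pathway list the text names up to 4 called genes per contrast with the smallest p. For likeness it names the 5 highest other genes of each measure, with clone and predicted names passed over. Mki67 and Pcna are named as division markers. Aurka and Pkmyt1, and the called genes of the cell type lists, complete small counts and were named after their values were seen. The genes and the lists were chosen with earlier results of these data known. Alternatives were another background correction, other scalings, other filters, probe averaging, the authors' table, fewer arrays, array weights, Xist as a covariate for sex, slide and replicate blocks, and leaving out each lung.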

Additional observations from a re-analysis of the deposited data

Results flagged for a closer look

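In the air group of 24 h, Cdk1 in replicate 1 stood apart from the other lungs, at 1.75 against 1.57 for the nearest. The gap was 0.866 of the group's range, above Dixon's 95% critical value for 4 samples. This was 1 of 40 checks, of 10 genes in 4 groups, and chance flags about 1 in 20.

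The ozone effect on Ccnf differed between the times by -1.09 on the log2 scale (limma adjusted p = 0.038). With 1 lung left out, 2 of 16 fits called it, as did 8 of 11 other settings.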

How the results depend on the processing

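The falls of the 10 genes at 24 h kept their direction under every setting run, and 4 were called within the slide of replicates 1 and 2. Leaving out each lung, the number called lower was 1 at 6 h, 7 to 10 at 24 h and 0 to 2 for the difference between times, and the number called higher was 0 to 1 at 6 h and 0 otherwise. At 6 h 2 genes were called lower with median scaling and with array weights, and 0 with probes averaged, an average that takes in the dim Cdk1 probe. For the difference between times the number was 6 with normexp, 4 with quantile normalization, 5 with array weights and 0 with median scaling or slide as a block. Cdc20, Ube2c and Ccnf were among those called under each of the first 3 of these. With the replicate block 1, 8 and 0 genes were called at 6 h, at 24 h and for the difference (247, 261 and 1 of all genes). Same-numbered lungs had correlations of -0.01 to 0.20, not all above 0.1, and 3 of the 8 correlated best with their own number. Every best match lay on the same slide, so these values cannot tell whether the numbers pair the lungs.

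Of all genes, 970 were called at 6 h. The count was 110 with the authors' table, 100 with the arrays of 6 h only, 1814 with array weights, 558 with Xist as a covariate and 53 within the slide of replicates 1 and 2. At 24 h 429 were called, against 644 with normexp, 256 with median scaling, 757 with the authors' table, 1738 with array weights, 245 with Xist, and 47 and 255 within the slides. For the difference 14 were called, against 542 with normexp, 38 with quantile normalization, 1 with median scaling, 441 with array weights and 6 with slide as a block. Leaving out each lung gave 196 to 1690, 263 to 530 and 0 to 264. Normexp moved the median of all genes from 0.07 to 0.14 at 6 h and from 0.02 to -0.14 at 24 h, and median scaling moved it to -0.09 at 6 h.

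At 6 h signs turned without a call for Ccnb2 (-0.03 with normexp, -0.15 with median scaling, -0.17 with array weights, -0.014 with Xist, -0.24 in the first slide, -0.15 and -0.10 without replicate 3 of ozone or of air). They also turned for Cdc25c (0.065 with normexp), Foxm1 (0.11 within the other slide, 0.011 and 0.027 without ozone replicate 2 or 4) and Ube2c (0.018 within the other slide). The causes were not tested.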
